A study of Mus musculus with 16 samples.

Results

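The genes described are the subunits, activators, inhibitor and assembly factors of the proteasome, taken as every gene whose symbol starts with Psma, Psmb, Psmc, Psmd, Psme, Psmf or Psmg. There were 48 of them among the 9223 genes measured. Of these, 5 formed the immunoproteasome set (Psmb8, Psmb9, Psmb10, Psme1 and Psme2) and 42 the constitutive set, while Psme2b, which shares sequence with Psme2, was kept apart. Single-cell RNA sequencing had been made from Pmel CD8+Thy1.1+ T cells of C57BL/6 mice aged 16 weeks with melanoma-associated vitiligo, a patchy loss of pigment cells, 45 days after surgery for the tumor. Pmel cells carry a transgenic T cell receptor for a melanocyte and melanoma antigen, and Thy1.1 marks them among the Thy1.2 cells of the strain. The 4 groups were cells of the draining lymph node, skin, lung and liver, and strain, disease state, age and time after surgery were shared by all of them. Skin and liver had been digested with collagenase and DNase and lung with Liberase and DNase, while lymph nodes were only broken up mechanically. Lung and liver cells had also passed a Percoll gradient, and the sources used here give neither how the T cells were then isolated nor whether animals were pooled.

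Each tissue gave 1 library, since its 4 samples differ only in the form of a flow cell lane number, so differences between tissues have no replicate and no test was possible. The deposited table held 1224 skin, 2322 lung, 556 liver and 1625 lymph node cells. Their summed counts ran from 1928185 in liver to 8072278 in lung, and the median cell held between 2517.5 (skin) and 3095.5 (liver) counts. All values below are therefore counts summed over the cells of a tissue per 1000000 counts of that tissue (CPM), with intervals at 95% for Poisson counts, which cover counting error only. All 8 T cell markers had counts in every tissue and summed to between 8893 (lung) and 11232 (lymph node) CPM. Single markers moved more than their sum. In skin, lung, liver and lymph node, Cd8a stood at 1374, 687, 772 and 1760 CPM and Trac at 1490, 639, 867 and 1235. Cd8b1 went the other way, at 1429, 2959, 2915 and 2172 CPM. Set against lymph node, 7 of the 8 markers had smaller values in each of lung and liver, and 1 a larger value. With libraries scaled by size factors, 3 had smaller and 5 larger values in each organ. The cause was not tested. Markers of other cells were low: the summed B cell markers ran from 10.02 to 39.7 CPM, the macrophage genes Csf1r and Adgre1 had 0 counts in every tissue, and the 1 keratinocyte gene in the table, Krt10, ran from 2.07 to 10.6 CPM. Myeloid markers summed to between 248 and 315 CPM, most of it Cst3 (223 to 262 CPM). Among them, Lyz2 stood at 0, 29.0, 0 and 7.06 CPM in skin, lung, liver and lymph node. In that order Cd68 stood at 12.8, 20.7, 24.9 and 8.16 CPM, Fcer1g at 5.47, 19.2, 20.7 and 4.85, and Tyrobp at 0.607, 6.07, 8.82 and 4.85. No hepatocyte or fibroblast marker was in the table. Of the 5727 cells, 19 barcodes occurred in 2 tissues. In the table, skin and lymph node cells carry a 2 in their names that lung and liver cells lack, and the sources used here do not give what it marks.

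The proteasome is a barrel of stacked rings, closed by alpha subunits and cutting proteins with the catalytic beta subunits inside, to which a regulatory cap feeds proteins tagged with ubiquitin. Under interferon gamma, and by default in many lymphocytes, newly made barrels take up Psmb8, Psmb9 and Psmb10 in place of Psmb5, Psmb6 and Psmb7, which favours peptides that fit MHC class I. The PA28 ring of Psme1 and Psme2 products, likewise induced by interferon, opens the barrel without ubiquitin.

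On GRCm38, Psmb9 (chromosome 17, 34181987 to 34187764, minus strand) and Psmb8 (34197721 to 34201454, plus strand) lie in the MHC class II region on either side of Tap1 (34187553 to 34197225, plus strand), followed by Tap2 (34203527 to 34216321, plus strand). Psme1 (55578123 to 55581529, plus strand) and Psme2 (55587441 to 55591113, minus strand) are neighbours on chromosome 14, Psmb10 lies on chromosome 8 (105935735 to 105938444, minus strand) and Psme2b on chromosome 11 (48945354 to 48946190, minus strand). All 48 genes had a single position in GENCODE. Promoter windows were in the RefSeq table for 41 of the 48 members. The 250 bases before the RefSeq start of 3 immunoproteasome genes and 2 of the catalytic genes they replace are shown because the results below turn on these genes moving apart. Capitals mark a match to a gamma interferon activation site (GAS, TTCNNNGAA) or to an antioxidant response element (TGACNNNGC or, on the other strand, GCNNNGTCA).
Psmb8, chr17:34197945-34198194 (+): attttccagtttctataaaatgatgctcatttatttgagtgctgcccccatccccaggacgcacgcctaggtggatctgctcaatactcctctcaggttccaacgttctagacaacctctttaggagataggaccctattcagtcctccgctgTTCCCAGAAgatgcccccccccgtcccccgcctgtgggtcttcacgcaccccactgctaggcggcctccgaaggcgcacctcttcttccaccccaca
Psmb9, chr17:34187331-34187580 (-): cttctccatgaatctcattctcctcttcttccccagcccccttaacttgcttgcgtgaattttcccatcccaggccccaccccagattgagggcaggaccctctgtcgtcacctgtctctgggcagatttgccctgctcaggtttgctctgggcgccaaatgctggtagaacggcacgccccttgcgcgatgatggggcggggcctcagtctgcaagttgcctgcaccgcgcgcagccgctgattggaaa
Psme1, chr14:55578244-55578493 (+): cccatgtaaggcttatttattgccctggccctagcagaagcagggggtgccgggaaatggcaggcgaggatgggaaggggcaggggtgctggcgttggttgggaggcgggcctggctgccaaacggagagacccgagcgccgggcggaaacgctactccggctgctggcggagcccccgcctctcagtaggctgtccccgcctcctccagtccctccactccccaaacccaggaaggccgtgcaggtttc
Psmb5, chr14:54617996-54618245 (-): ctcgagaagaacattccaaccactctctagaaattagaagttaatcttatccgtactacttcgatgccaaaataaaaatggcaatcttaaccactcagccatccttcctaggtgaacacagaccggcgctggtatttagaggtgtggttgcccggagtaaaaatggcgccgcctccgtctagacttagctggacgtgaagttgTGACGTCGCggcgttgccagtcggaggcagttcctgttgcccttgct
Psmb6, chr11:70525107-70525356 (+): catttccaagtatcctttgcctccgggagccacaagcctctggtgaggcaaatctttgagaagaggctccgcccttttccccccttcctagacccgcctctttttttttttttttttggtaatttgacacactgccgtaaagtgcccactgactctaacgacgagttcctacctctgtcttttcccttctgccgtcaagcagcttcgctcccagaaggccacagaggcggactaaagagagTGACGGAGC

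These windows are upstream of the RefSeq start only. By GENCODE, those of Psmb8, Psmb9 and Psme1 lie inside the span of the gene itself, which begins earlier, and the window of Psmb9 overlaps the first bases of Tap1 on the opposite strand. In the 300 bases from 250 before to 50 after the start, the GAS letters stood in 1 of 5 immunoproteasome genes (Psmb8, 97 to 89 bases before the start), in 2 of 35 constitutive genes (Psmd2 and Psmg1) and in 8.30% of all 32851 promoters. The core of the interferon stimulated response element (GAAA, any 2 bases, GAAA, on either strand) stood in 1 of 5 immunoproteasome genes (Psme1, 10 to 19 bases after the start), in 4 of 35 constitutive genes (Psmd4, Psmd9, Psmb3 and Psmg4) and in 3.44% of all promoters. Antioxidant letters, which the Nrf factors that raise proteasome genes can bind, stood in 0 of 5 immunoproteasome genes, in 6 of 35 constitutive genes (Psmb5, Psmb6, Psmd9, Psmd12, Psmc6 and Psme4) and in 12.4% of all promoters. The shares over all promoters count promoters and not genes. Counted by promoter, the GAS letters stood in 1 of 6 immunoproteasome and 2 of 37 constitutive promoters. The core of the interferon element stood in 1 of 6 and 4 of 37, and the antioxidant letters in 0 of 6 and 6 of 37. A match is a description of letters, not of binding.

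All 5 immunoproteasome genes had their lowest level in skin, with libraries scaled by total counts as here or by size factors. Of the 42 constitutive genes, 12 were lowest in skin (11 with size factors), and the share over all genes was not computed. On total counts 4 of the 5 immunoproteasome genes were highest in lymph node, whereas with size factors 2 were highest in lung and 3 in liver. Summed, they stood at 1532 CPM (1490 to 1575) in skin, 2142 (2110 to 2174) in lung and 2169 (2104 to 2236) in liver, against 2492 (2446 to 2538) in lymph node. Skin was thus 1.63-fold lower than lymph node (1.57 to 1.68), 1.40-fold lower than lung (1.35 to 1.44) and 1.42-fold lower than liver (1.36 to 1.48), each beyond counting error. Lung and liver did not differ beyond counting error (ratio 0.988, 0.955 to 1.02). The 42 constitutive genes moved little over the same tissues on total counts, with 5316, 5568, 5068 and 5343 CPM in skin, lung, liver and lymph node and a ratio of skin to lymph node of 0.995 (0.976 to 1.01). Immunoproteasome counts relative to constitutive counts, a measure that no scaling of libraries can change, were 0.618 times as high in skin as in lymph node (0.595 to 0.642).

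**Figure D1:**
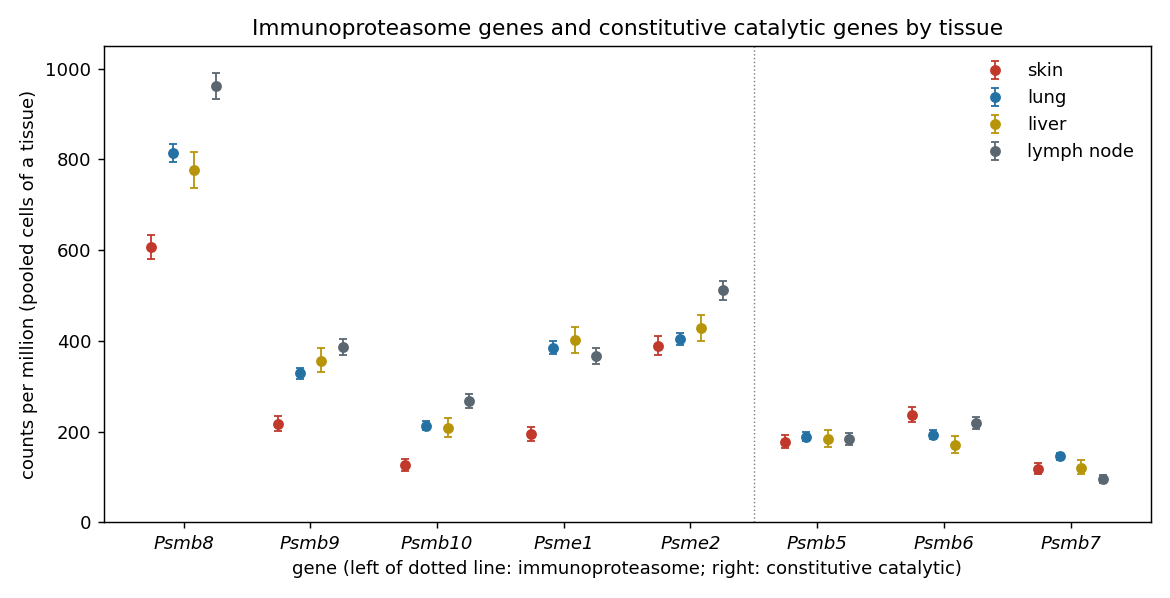
CPM (vertical axis) of the 5 immunoproteasome genes and the 3 constitutive catalytic genes (horizontal axis) in the pooled cells of skin, lung, liver and lymph node, 1 library each, with 95% counting intervals as bars. Skin is the lowest point for each of the 5 immunoproteasome genes, and Psmb5 lies between 177 and 189 in every tissue.

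Psmb8, the immunoproteasome counterpart of the chymotrypsin-like subunit Psmb5, stood at 607 CPM in skin, 813 in lung and 776 in liver, against 962 in lymph node. Skin lay 1.59-fold below lymph node (1.504 to 1.67), with lung and liver between them on total counts and above both with size factors. Psmb9, which replaces the caspase-like subunit Psmb6, stood at 217, 328, 356 and 385 CPM in the same order. It was 1.77-fold lower in skin than in lymph node (1.62 to 1.94), while the ratio to lymph node was 0.851 in lung (0.801 to 0.905) and 0.924 in liver (0.845 to 1.01). Psmb10, which replaces the trypsin-like subunit Psmb7, stood at 126, 213, 208 and 266 CPM. Of the 5 genes it differed most between skin and lymph node, by 2.12-fold (1.89 to 2.37).

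Psme1, the alpha subunit of PA28, stood at 193 CPM in skin, 385 in lung and 401 in liver, against 367 in lymph node. Skin was 1.90-fold below lymph node (1.73 to 2.08) and 2.07-fold below liver (1.87 to 2.31). On total counts the other 3 tissues lay close together, so that this gene separated skin from all others. With size factors lung and liver lay above lymph node, at log2 ratios of 0.47 and 0.56, and skin was still lowest, at -0.73. Psme2, the beta subunit of the same ring, stood at 389, 403, 427 and 511 CPM. Its ratio of skin to lymph node was 0.761 (0.710 to 0.815), the smallest difference among the 5 genes. Skin and lung were alike within counting error on total counts. With size factors Psme2 was lowest in skin and highest in liver, a range of 1.30-fold. Psme2b stood at 141 CPM in skin, 39.5 in lung and 33.2 in liver, against 169 in lymph node. It was 4.28-fold lower in lung (3.75 to 4.90) and 5.10-fold lower in liver (3.95 to 6.69) than in lymph node. As a share of the counts of Psme2 and Psme2b together it made up 26.6% in skin and 24.9% in lymph node, whose cell names carry the 2, against 8.92% in lung and 7.21% in liver, whose names do not. How reads were divided between the 2 genes was not tested, so the levels of Psme2 and Psme2b are uncertain. With Psme2b added to the 5 genes the log2 ratio of skin to lung was -0.38 in place of -0.48, and with Psme2 left out, an alternative chosen after seeing the data, it was -0.60.

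The 3 catalytic genes that the immunoproteasome replaces did not follow that order. Psmb5 stood at 177 CPM in skin, 189 in lung and 184 in liver, against 183 in lymph node, within counting error of each other on total counts. All 3 constitutive catalytic genes were lowest in lymph node with size factors. Psmb6 stood at 237, 193, 170.1 and 219 CPM, with skin above lung and liver and within counting error of lymph node. Psmb7 stood at 117, 145, 120.3 and 95.1 CPM, and in lung it was 1.53-fold above lymph node (1.36 to 1.71). As a share within each pair, a value that does not depend on the library's depth, Psmb8 made up 77.4% of the counts of Psmb8 and Psmb5 in skin, 81.1% in lung and 80.9% in liver, against 84.0% in lymph node. Psmb9 made up 47.8% of its pair with Psmb6 in skin, 62.9% in lung and 67.7% in liver against 63.8% in lymph node, so that in skin alone its interval (45.3% to 50.4%) reached an even split. Psmb10 made up 51.8% of its pair with Psmb7 in skin, 59.5% in lung and 63.3% in liver, against 73.7% in lymph node, a graded order in which only lung and liver overlapped. The ratio of skin to lymph node for these 3 pair ratios was 0.651 (0.577 to 0.734) for Psmb8 over Psmb5, 0.520 (0.457 to 0.592) for Psmb9 over Psmb6 and 0.383 (0.320 to 0.459) for Psmb10 over Psmb7. Liver went above lymph node in 1 of the 3 pairs only, Psmb9 over Psmb6, by 1.19-fold (1.02 to 1.39).

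**Figure D2:**
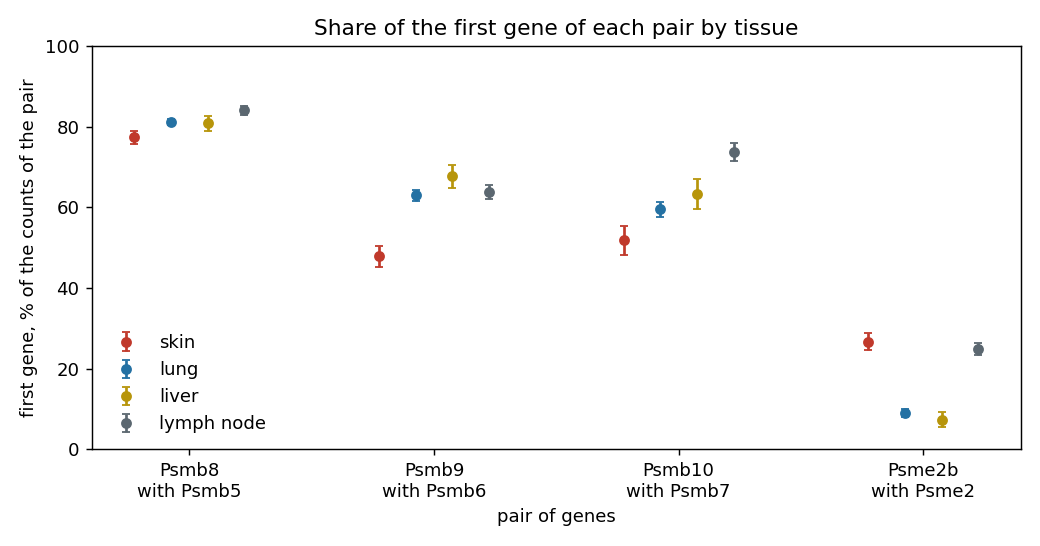
Share of the first gene among the counts of each pair, in percent (vertical axis), for 3 catalytic pairs and for Psme2b with Psme2 (horizontal axis) in 4 tissues, with exact 95% binomial intervals as bars. Skin is lowest in the 3 catalytic pairs, and the last pair separates skin and lymph node (26.6% and 24.9%) from lung and liver (8.92% and 7.21%).

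Of the 42 constitutive genes, 30 varied by less than 1.5-fold over the tissues (28 with size factors). The share of all genes that stayed within this fold was not computed. Nor was the share that was highest or lowest in a given tissue, so such counts have no background, here and for the groups below. In the alpha ring, which gates the barrel, each of the 7 genes measured (Psma1 to Psma7) varied by less than 1.5-fold (5 of 7 with size factors). They ran from 1.07-fold for Psma7 to 1.33-fold for Psma4, and 6 of 7 were highest in lung, as 6 of 7 were with size factors. Summed on total counts, the ring still differed beyond counting error, with a ratio of skin to lung of 0.870 (0.842 to 0.900). Psma4 stood at 143 CPM in skin, 190.4 in lung and 149.9 in liver, against 165 in lymph node. The 4 remaining beta subunits, which do not cut, also stayed within 1.5-fold (2 of 4 with size factors). They divided by direction: Psmb1 (467, 635, 579 and 509 CPM in skin, lung, liver and lymph node) and Psmb4 (128, 191, 173 and 155 CPM) were lowest in skin and highest in lung, while Psmb2 and Psmb3 (501, 391, 376 and 398 CPM) were highest in skin. With size factors Psmb2 was highest in lung and Psmb1 lowest in lymph node.

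Of the 6 ATPases that unfold proteins in the regulatory cap, 4 were highest in skin (Psmc3, Psmc4, Psmc5 and Psmc6) and 5 lowest in liver, counts that became 3 and 2 with size factors. Psmc1 stood at 52.5 CPM in skin, 56.7 in lung and 34.2 in liver, against 75.02 in lymph node and was 2.19-fold lower in liver than in lymph node (1.68 to 2.90), on 66 liver counts. Psmc5 stood at 111, 75.1, 69.5 and 104 CPM, with skin and lymph node above lung and liver. Of the 11 other cap subunits, 8 varied by less than 1.5-fold on total counts, the least of them Psmd4, a receptor for ubiquitin chains (186, 176, 187 and 174 CPM, 1.45-fold with size factors). The 3 that varied more were Psmd1 and Psmd2, the scaffolds of the base (Psmd1 at 59.2, 36.4, 38.4 and 47.4 CPM, Psmd2 at 94.8, 68.0, 58.1 and 80.3 CPM), and Psmd11 of the lid (95.4, 76.1, 66.9 and 103 CPM), and on total counts each had lower levels in lung and liver than in skin and lymph node, with the interval of Psmd1 reaching equality for liver over lymph node. With size factors these 3 varied by less than 1.5-fold, Psmd1 was lowest in lymph node, and a different 3 varied more: Psmd8 (1.92-fold), Psmd13 (1.62-fold) and Psmd14 (1.57-fold), each highest in lung and lowest in lymph node. Psmd14, the deubiquitinase of the lid, stood at 81.4, 84.1, 77.3 and 70.6 CPM.

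The assembly factors had low counts and were lowest in liver for 7 of the 8 genes in that group, Psmg4 being the exception, and for 4 of 8 with size factors. Psmd5, a chaperone of the base, stood at 26.4 CPM in skin, 28.7 in lung and 23.3 in liver, against 43.9 in lymph node, more than 1.5-fold below lymph node in all 3 peripheral tissues on total counts. Psmd10, another chaperone of the base, stood at 42.8, 41.9, 33.2 and 50.97 CPM, and was 1.54-fold lower in liver than in lymph node (1.16 to 2.06). Psmg3, a chaperone of the alpha ring, stood at 18.2, 31.0, 13.5 and 30.9 CPM, and Psmg1, another, at 10.3, 10.4, 7.26 and 18.3 CPM. The group also holds Psmc3ip, which the rule takes in by its symbol although its product acts in meiotic recombination and is no proteasome subunit, at 3.11 to 11.8 CPM. The remaining activators were Psme3, the nuclear PA28 gamma (49.2, 38.3, 47.7 and 47.7 CPM), and Psme4, which caps the barrel as PA200, at 3.59 to 9.34 CPM. The inhibitor Psmf1 stood at 29.8, 31.2, 34.2 and 37.1 CPM, within counting error in each pair of tissues.

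The number of members past a 1.5-fold ratio, among those with at least 100 counts over the 2 tissues, was set against all genes under the same rule. In skin against lymph node, 0 of 46 members were higher and 7 were lower (Psmb8, Psmb9, Psmb10, Psme1, Psmd5, Psmg1 and Psmg3), where 9.05% of all genes were higher and 19.2% lower, so the 7 of 46 lay near the share over all genes. Those 7 included 4 of the 5 immunoproteasome genes and 3 of 40 constitutive genes, and the 3 were assembly factors with at most 199 counts in a tissue. In lung against lymph node, 1 of 46 was higher (Psmb7) and 3 lower (Psme2b, Psmd5 and Psmg1), where 5.94% of all genes were higher and 32.6% lower. In liver against lymph node, 0 of 45 were higher and 6 lower (Psme2b, Psmd5, Psmd10, Psmd11, Psmg3 and Psmc1), where 6.48% were higher and 33.8% lower. In both organs the members' counts on the lower side lay below the shares over all genes, a difference that was not tested. With size factors the split of all genes was more even, and the members called changed. In skin 0 were then higher and 4 lower (Psmb9, Psmb10, Psme1 and Psmg1), where 13.9% of all genes were higher and 11.8% lower. In lung 8 were higher (Psma4, Psma5, Psmb1, Psmb4, Psmb7, Psmd8, Psmd13 and Psmd14), a count near the 16.8% of all genes that were, and 1 was lower (Psme2b) where 13.4% were. In liver 5 were higher (Psmb1, Psmb4, Psmb7, Psmd8 and Psmg4) and 3 lower (Psme2b, Psmg3 and Psmc1), where 18.8% of all genes were higher and 14.4% lower. These 3 comparisons share the lymph node library.

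Between peripheral tissues, 2 of 46 members were higher in skin than in lung (Psme2b and Psmd1) against 24.6% of all genes, and 4 were lower (Psmb9, Psmb10, Psme1 and Psmg3) against 13.7%. In skin against liver, 5 of 44 were higher (Psme2b, Psmd1, Psmd2, Psmc1 and Psmc5) and 3 lower (Psmb9, Psmb10 and Psme1), where 25.8% of all genes were higher and 10.2% lower. On total counts the members lower in skin were immunoproteasome genes, apart from Psmg3 against lung, and their counts of 4 of 46 and 3 of 44 lay below the shares over all genes. With size factors 1 was higher (Psme2b, where 16.9% of all genes were higher) and 9 were lower in skin against lung (where 20.9% were lower), 4 of them immunoproteasome genes and 5 constitutive (Psma4, Psma5, Psmb1, Psmb4 and Psmg3). Against liver 1 was then higher (Psme2b, with 16.4% of all genes higher) and 6 lower (with 17.7% lower), 4 of them immunoproteasome genes and the other 2 Psmb4 and Psmg4. In lung against liver, 2 of 45 were higher (Psmg3 and Psmc1) and 0 lower, where 5.48% of all genes were higher and 3.82% lower. The same 2 genes were higher and 0 lower with size factors, where the shares of all genes were 4.71% and 4.29%.

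**Figure D3:**
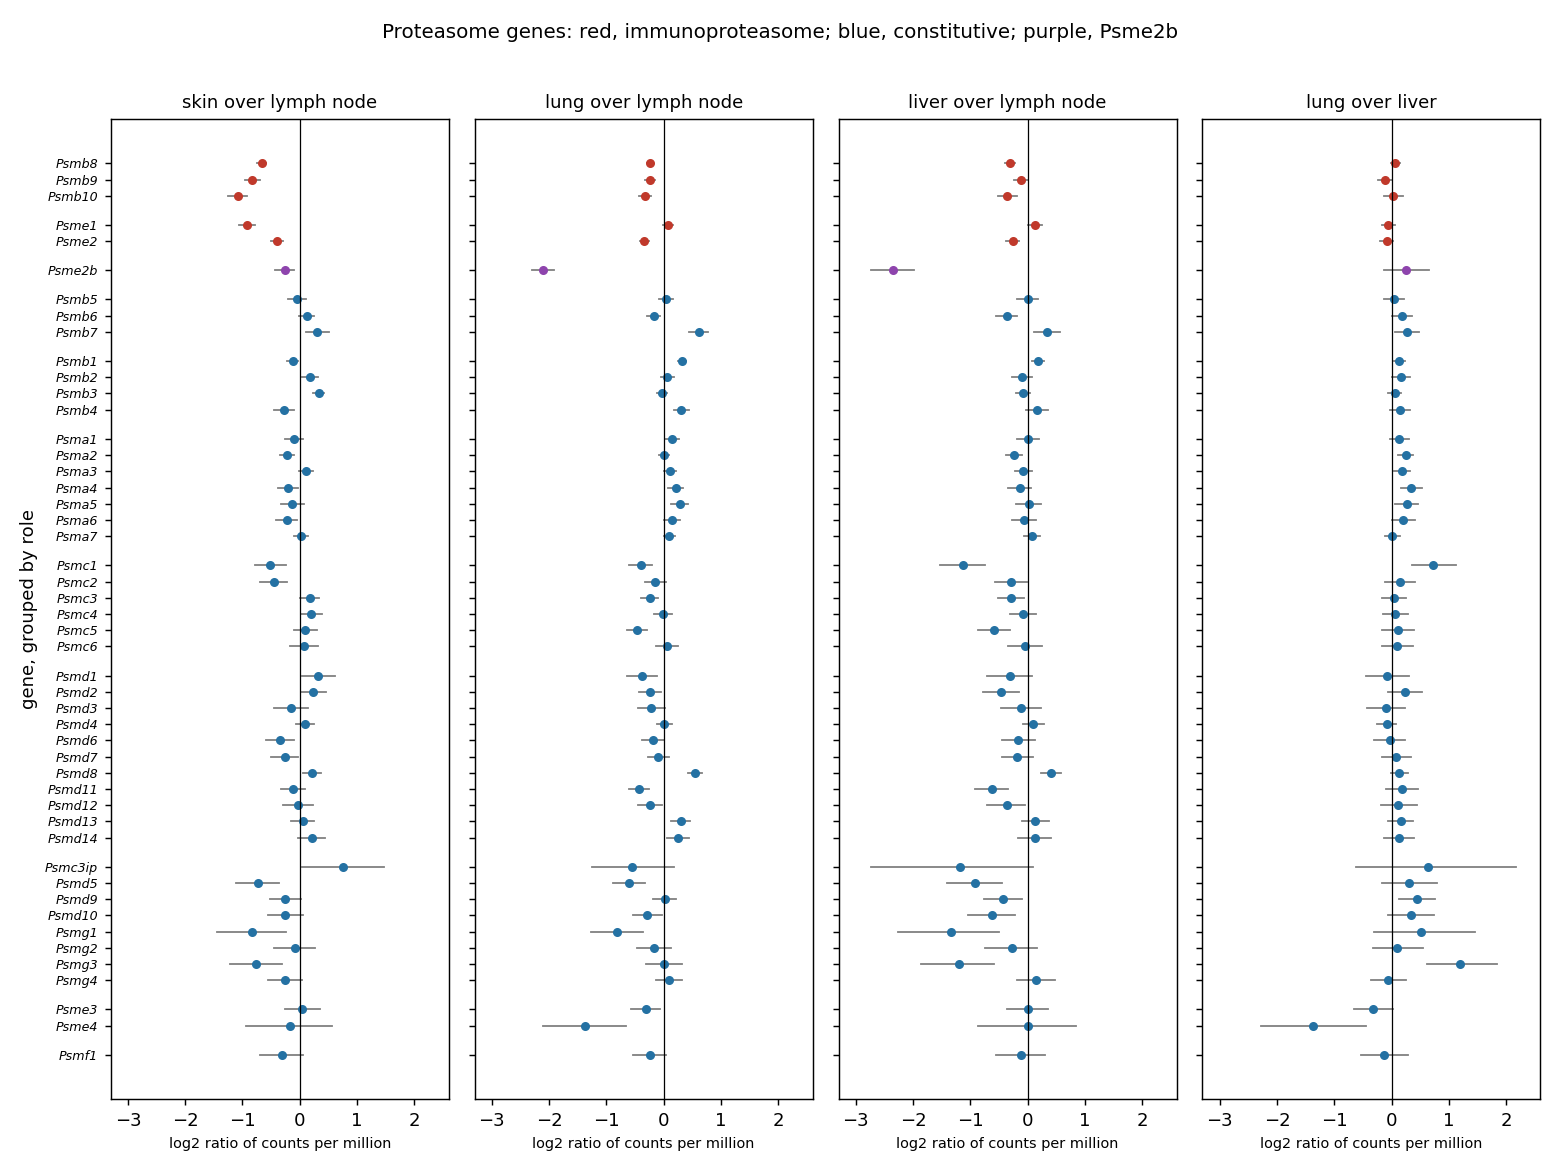
Log2 ratio of CPM (horizontal axis) for each of the 48 genes, grouped by role (vertical axis), in 4 comparisons of tissues, with 95% counting intervals as bars and a line at equality. Immunoproteasome genes (red) lie left of equality in skin over lymph node, while in lung and liver over lymph node they lie mostly left with this scaling and all to its right when libraries are scaled by size factors.

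Medians showed the same division once set against all genes. For skin over lymph node the median log2 ratio was -0.83 for the 5 immunoproteasome genes, -0.09 for the constitutive genes and -0.16 for all genes. For lung over lymph node these values were -0.24, -0.01 and -0.33, and for liver over lymph node -0.26, -0.11 and -0.35. In lung and liver the immunoproteasome median thus lay slightly above the median of all genes. With median-ratio size factors in place of total counts the medians of all genes moved to 0.04 for skin, 0.07 for lung and 0.08 for liver, and those of the immunoproteasome genes became -0.63, 0.16 and 0.17. The direction in skin therefore held under both scalings, whereas in lung and liver it turned. Constitutive medians under size factors were 0.10, 0.39 and 0.32, above the median of all genes in each tissue.

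Counts per cell were also lowest in skin. Each cell was thinned to 1886 counts, which left 1083 skin, 2049 lung, 529 liver and 1494 lymph node cells and left out 141, 273, 27 and 131 that were shallower. The median cell then held 2 immunoproteasome counts in skin and 4 in each other tissue, whereas it held 10 constitutive counts in skin, lung and lymph node and 9 in liver. At least 1 immunoproteasome count was present in 91.8% of skin cells (89.98% to 93.3%), 97.4% of lung cells, 97.4% of liver cells and 97.9% of lymph node cells. Psmb8 was counted in 64.9%, 78.3%, 72.8% and 81.0% of thinned skin, lung, liver and lymph node cells (73.9%, 88.2%, 87.8% and 88.6% before thinning). Psme1 was counted in 28.6%, 48.9%, 52.6% and 48.8% (37.7%, 64.1%, 68.7% and 59.2% before thinning). Genes that T cells should lack had counts in some of the same thinned cells, and the source of these counts was not tested. Lyz2 of myeloid cells had a count in 0%, 5.37%, 0% and 1.34% of cells, the immunoglobulin gene Igkc in 0%, 2.39%, 0.189% and 1.87%, and the airway gene Scgb1a1 in 0%, 2.20%, 2.08% and 0%. Other such markers did have counts in skin cells. Ighm was counted in 1.11%, 0.390%, 0.189% and 2.07%, and Epcam in 1.02%, 0.146%, 0% and 1.27%. Krt10 was counted in 2.03%, 0.537%, 0.567% and 1.87%, and Cd68 in 2.31%, 3.22%, 4.16% and 1.47%. A count of 0 in 1083 skin cells allows a share of up to 0.340% of cells with a count at this depth (upper exact bound), which does not limit the share of cells that express the gene.

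Because the immunoproteasome genes are known to respond to interferon, cells were divided by their thinned counts of 34 interferon stimulated genes, none of them a member. The groups are ranges of a score and not cell types: 0 to 2, 3, 4 to 6, and 7 to 117 counts, with 2308 of 5155 cells within 1 count of the first edge and 1016 within 1 count of the last. Few skin cells were in the highest group (6.28%), with 17.1% in lung and 23.6% in liver against 35.8% in lymph node, and 64.7%, 36.0%, 34.8% and 19.2% were in the lowest. Within every tissue the 5 genes were higher in the highest than in the lowest group, by 1.51-fold in skin (1.32 to 1.71), 1.37-fold in lung (1.29 to 1.45), 1.43-fold in liver (1.28 to 1.59) and 1.47-fold in lymph node (1.37 to 1.57). Constitutive genes differed by at most 1.08-fold between the same groups (1.03 to 1.13, in lymph node). Psmb10 differed most in skin and in lymph node, by 2.02-fold (1.32 to 3.00) and 1.97-fold (1.55 to 2.52), and Psmb9 least in those tissues, by 1.31-fold (0.876 to 1.90) and 1.26-fold (1.06 to 1.51).

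Skin stayed below lymph node at each range of interferon stimulated counts. Its immunoproteasome level was 1373, 1550, 1696 and 2066 CPM from the lowest group to the highest, against 2025, 2147, 2287 and 2973 CPM in lymph node. The ratios were 0.678 (0.629 to 0.731), 0.722 (0.640 to 0.813), 0.742 (0.674 to 0.815) and 0.695 (0.611 to 0.788) in thinned cells. Over all cells without thinning the ratio was 0.615, a log2 ratio of -0.70, and over the thinned cells the log2 ratio was -0.72. Psme1 and Psmb9 kept a wide gap, with ratios of 0.528 to 0.753 and 0.558 to 0.665 over the 4 groups, while the intervals of Psme2 reached equality in all but the lowest group. Skin cells of the highest group (1825 to 2331 CPM) and lymph node cells of the lowest group (1907 to 2148 CPM) had overlapping intervals. In lung the 4 ratios to lymph node were 0.956, 0.941, 0.913 and 0.891, and in liver 0.921, 1.02, 0.906 and 0.895, where the intervals of the lowest 2 groups reached equality. Without the cells of the highest group the log2 ratio to lymph node was -0.56 in skin, -0.10 in lung and -0.13 in liver, against -0.70, -0.22 and -0.20 with all cells.

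**Figure D4:**
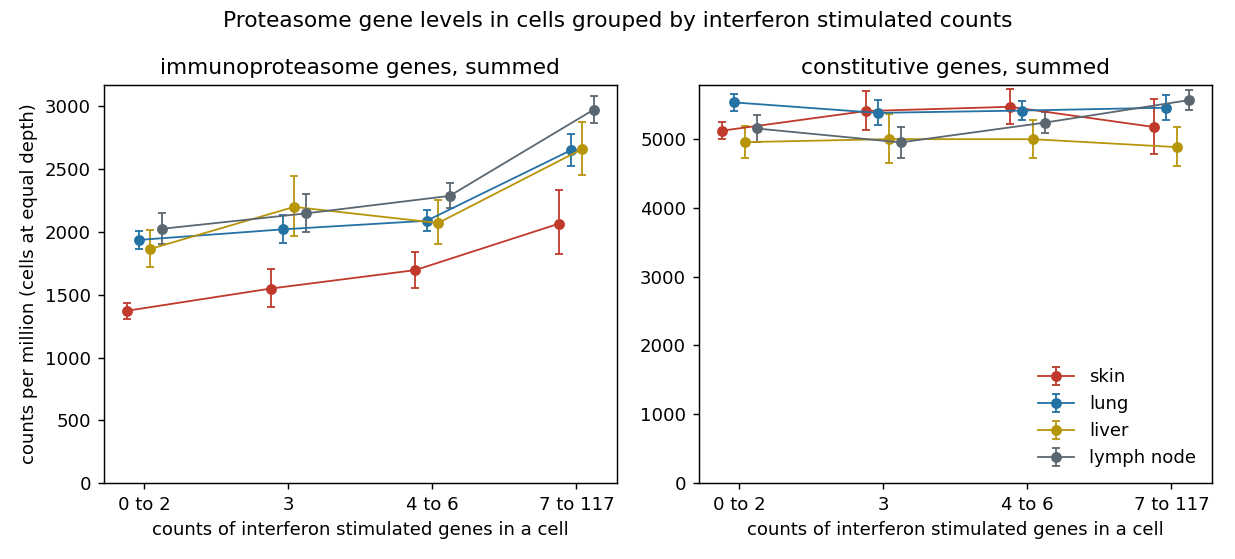
Summed CPM of the 5 immunoproteasome genes (left) and the 42 constitutive genes (right) on the vertical axes, in thinned cells grouped by their counts of interferon stimulated genes (horizontal axes), for each tissue, with 95% counting intervals as bars. Immunoproteasome levels are higher in the group with 7 to 117 counts than in the group with 0 to 2 in all tissues, and skin is lowest in each group.

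Other scores gave a different picture for the constitutive genes. Cells with at least 3 thinned counts of 28 cycling genes (9.70% of skin, 6.78% of lung, 4.73% of liver and 3.35% of lymph node cells) held more constitutive counts than cells with 0, by 1.28-fold in skin (1.20 to 1.36), 1.15-fold in lung (1.09 to 1.21), 1.21-fold in liver (1.07 to 1.37) and 1.23-fold in lymph node (1.13 to 1.33). Immunoproteasome counts were 1.20-fold higher in cycling skin cells (1.07 to 1.36), and in the other 3 tissues the interval reached equality. Among cells with 0 cycling counts the ratio of skin to lymph node was 0.585 (0.550 to 0.621) for the immunoproteasome genes. Skin cells were also high in immediate early genes: 87.6% of them held 20 to 166 thinned counts of 18 such genes, against 14.7% of lymph node cells. Within that range, a division chosen after seeing the data, the ratio of skin to lymph node was 0.657 (0.609 to 0.709) for immunoproteasome genes and 1.01 (0.967 to 1.06) for constitutive genes. The part that tissue digestion plays in these levels cannot be told apart from tissue.

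Partners of the immunoproteasome in antigen presentation were less uniform. Of 17 genes that load peptides onto MHC class I or drive their expression, 0 were past 1.5-fold higher and 4 lower in skin against lymph node (among them Tap1, H2-T23 and Nlrc5), where 9.05% of all genes were higher and 19.2% lower, with a median log2 ratio of -0.23 against -0.16 for all genes. With size factors 0 were higher and 1 lower, and these 3 genes were no longer past the fold. Tap1, the peptide transporter gene that lies between Psmb9 and Psmb8, stood at 115 CPM in skin, 166 in lung and 152 in liver, against 180.5 in lymph node, lowest in skin as its neighbours were. Tap2, the gene of the partner chain, stood at 154, 133, 134 and 198 CPM, so skin was not its lowest tissue on total counts. Irf1, which switches on Psmb9 and Tap1 in response to interferon gamma, stood at 129, 94.8, 121 and 109 CPM, and in skin it was 1.19-fold above lymph node (1.04 to 1.36) where the immunoproteasome genes were below it. The class I light chain B2m varied little, from 6719 CPM in skin to 7278 in lung. On total counts, 4 of these genes were past the fold lower in lung and in liver against lymph node (among them H2-T23, Pdia3 and Nlrc5), and 1 was higher in liver (H2-Q7). Those 4 of 17 and 4 of 16 lay below the 32.6% and 33.8% of all genes that were lower, and with size factors 2 genes were higher and 3 lower in each organ.

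Some genes that feed the proteasome had higher levels in skin cells than in lymph node cells. Of 26 ubiquitin and proteasome partners in the table, 22 had at least 100 counts, and in skin against lymph node 4 were past 1.5-fold higher and 0 lower, where 9.05% of all genes were higher and 19.2% lower, with a median log2 ratio of -0.04. With size factors 5 were higher and 0 lower, where 13.9% and 11.8% of all genes were. The ubiquitin gene Ubb (7409, 4074, 3701 and 4559 CPM in skin, lung, liver and lymph node) was highest in skin. Uchl5, a deubiquitinase of the cap, stood at 71.1, 44.7, 44.6 and 41.3 CPM, and Zfand5, an activator of the proteasome, at 91.7, 48.6, 71.1 and 44.1 CPM. On total counts, 0 of 24 were higher and 7 lower in lung against lymph node, near the 32.6% of all genes that were lower, and with size factors 1 was higher and 3 lower. The 7 included Vcp, which extracts ubiquitinated proteins (184, 129, 130.2 and 201 CPM), and Nfe2l1, a transcription factor of proteasome genes (26.7, 11.6, 4.67 and 28.5 CPM, the liver value resting on 9 counts). Pomp, the chaperone that matures the barrel, stood at 290.4, 316, 307 and 266 CPM, a narrow range as for most constitutive subunits.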

How the data were processed

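Single-cell RNA sequencing was read from 1 deposited table of whole-number counts per gene and cell, in which the authors list 9223 genes and 5727 cells. Bowtie, RSEM and the build mm10 are named, without versions, per the submitters' processing notes. The sources used here do not give whether counts are of unique molecular identifiers or how genes and cells were filtered. Column names gave the tissue of every cell, and 0 columns were left over. The 16 samples are 4 lane-like samples for each tissue, so a tissue was 1 library and no test was run.

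Sums of counts over the cells of a tissue were divided by that tissue's total. Ratios carry exact 95% intervals for Poisson counts (conditional binomial), ratios of ratios an exact conditional interval, and shares the Clopper-Pearson interval. Counting intervals treat reads as independent. Scrublet, run through scanpy 1.11.5 at an expected rate of 0.05, called 62 doublets (1.08%), which were kept. Cells were thinned to the 10th percentile of depth. Python 3.11.15, numpy 2.4.6, scipy 1.17.1 and pandas 2.3.3 were used, and the intervals were tested on simulated data.

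Every member could be named, with full values for the 5 immunoproteasome genes, their 3 counterparts, Psme2b and members past 1.5-fold. The members and lists were chosen with earlier results of these data known. Values of 2 genes in the partner lists are not reported here. Positions came from GENCODE M21 on GRCm38, and promoters from RefSeq on GRCm38.p6.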

Additional observations from a re-analysis of the deposited data

How the results depend on the processing

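Values are log2 ratios unless called counts of members past the fold, and the cause of each change was not tested. Scaled by size factors in place of total counts, immunoproteasome genes were at -0.51 for skin over lymph node, -0.69 for skin over lung and -0.74 for skin over liver, and they reversed to 0.18 for lung and 0.23 for liver over lymph node. Constitutive genes were then at 0.19 (skin), 0.46 (lung) and 0.36 (liver) over lymph node (liver reversed), 0.10 for lung over liver, -0.27 for skin over lung and -0.17 for skin over liver (reversed). Members past the fold became 4 lower for skin over lymph node, 8 higher and 1 lower for lung, 5 higher and 3 lower for liver, 1 higher and 9 lower for skin over lung, and 1 higher and 6 lower for skin over liver, to be read against the shares of all genes under that scaling in the results. With a fold of 2 in place of 1.5 they became 1 lower for skin over lymph node, 0 higher and 1 lower for lung, 3 lower for liver, 1 higher for lung over liver, 1 higher and 0 lower for skin over lung, and 1 higher and 1 lower for skin over liver. With no minimum count, 1 was higher for skin over lymph node, 1 lower for lung over liver and 4 higher for skin over lung. The shares of all genes were not computed at a fold of 2 or with no minimum count, so these counts have no background. Without the cells highest in interferon stimulated genes, immunoproteasome genes were at -0.56 (skin), -0.10 (lung) and -0.13 (liver) over lymph node, 0.033 for lung over liver and -0.43 for skin over liver. Constitutive genes were then at 0.032 and 0.087 for skin and lung over lymph node, and the immunoproteasome relative to constitutive genes at -0.59 and -0.19. With equal weight per cell, constitutive genes were at -0.039 for skin over lymph node and -0.092 for skin over lung, and without cycling cells at -0.044 for skin over lymph node. With Psme2b added to Psme2, immunoproteasome genes were at -0.29 and -0.27 for lung and liver over lymph node, -0.38 for skin over lung and -0.40 for skin over liver, and relative to constitutive genes at -0.35, -0.20, -0.32 and -0.47. With Psme2 left out, an alternative chosen after seeing the data, skin stood at -0.79, -0.60 and -0.61 against lymph node, lung and liver, and relative to constitutive genes at -0.79, -0.54 and -0.68. With the 3 catalytic pairs only, the relative values were -0.86 (skin), -0.34 (lung) and -0.20 (liver) over lymph node, -0.52 for skin over lung and -0.66 for skin over liver. Leaving out doublets and thinning cells moved none of their 18 values each beyond the counting interval. No paired analysis was possible because the lanes of a tissue are not separate columns and no test was made, and no replicate could be left out for the same reason.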
